A study of Arabidopsis thaliana with 16 samples.

Results

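Seedlings of Arabidopsis thaliana grown in darkness for 4 days were given the steroid dexamethasone (DEX) or the ethanol solvent alone (mock) for 2 h, and their RNA was hybridised to Affymetrix ATH1 arrays, which read each transcript with a group of short probes called a probe set. The comparison of DEX with mock in darkness took its means from 8 of the 16 arrays of the study, 4 per treatment. They were chosen by the light and the treatment in the sample titles. All 22746 probe sets other than the manufacturer's controls were used. The spread of each probe set was estimated from all 16 arrays. All 4 groups of the study, in darkness or in continuous far-red light, carried the transgene FHY3p:FHY3-GR in the fhy3-4 mutant: the transcription factor FHY3 fused to the glucocorticoid receptor (GR) and driven by the promoter of FHY3 itself. The DEX dose was 10 µM. The design text calls the 4 arrays of a group independent biological replicates. No group here is without the transgene, so what DEX does by itself and what it does through the fusion protein cannot be told apart. FHY3 is not among the genes measured here, so its level could not be set against the labels.

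FHY3 is a plant transcription factor derived from a transposase, and it is best known for activating genes that bring the light receptor phytochrome A into the nucleus. A protein joined to the steroid-binding domain of the glucocorticoid receptor is held in the cytoplasm by chaperones until a steroid binds it. Adding DEX then lets the fusion enter the nucleus, and changes within the first hours mix direct targets of the factor with genes further downstream. Dark-grown seedlings are etiolated: they lengthen the hypocotyl on stored reserves and keep the chloroplast programme low.

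Values are the deposited log2 signals, so a difference of 1 is a 2-fold change, and signals of different genes are not compared with each other. A probe set was called higher or lower when limma's moderated test gave an adjusted p under 0.05 over all probe sets. Each ± after a log2 change is its standard error with n = 4 arrays per group. Of the probe sets, 533 (2.34%) were called higher under DEX and 809 (3.56%) lower. Taking the brightest probe set of each gene that a probe set names alone gave 13286 genes, of which 276 (2.08%) were called higher and 407 (3.06%) lower. The annotation gives a symbol to 1535 of these genes and only a locus tag to 11751, and no role is given below for the latter unless the reference lists a name for the locus. Among genes with a symbol 36 (2.35%) were higher and 61 (3.97%) lower. Array medians lay between 6.64 and 6.68, so a shift of all transcripts together could not be seen. Arrays of 1 group correlated at 0.9958 to 0.9976.

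The labelled material, seedlings, was set against markers. The 6 measured genes of the photosystems and the Calvin cycle had a mean log2 signal of 10.997 ± 0.113 (SD, n = 4) in dark mock and 11.123 ± 0.093 in dark DEX, and none was called. Of the root markers, 2 were measured and neither was called: EXPA18 read 5.15, 5.88, 5.56 and 5.87 in mock and 5.89, 5.78, 6.15 and 6.45 in DEX, and EXPA7 differed by 0.27 ± 0.12 (adjusted p = 0.258). BAN, a flavonoid enzyme of the seed coat, read 3.83, 4.11, 4.03 and 4.31 in mock, below the lower quartile of 4.45 over all probe sets. RNA came from seedlings and not from sorted cells, so fewer cells of a type and less of a transcript per cell cannot be told apart in any of the changes below.

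Most changes were small. Of the 276 higher genes, 15 rose at least 2-fold, 53 rose between 1.5-fold and 2-fold and 208 by less, with a median of 0.41 on the log2 scale (1.33-fold). Of the 407 lower genes, 53 fell at least 2-fold, 102 between 1.5-fold and 2-fold and 252 by less, with a median of -0.50 (1.41-fold). The 4 DEX arrays all lay above the 4 mock arrays for 247 of the higher genes and all below them for 372 of the lower genes, where 4.85% and 4.88% of all genes had their arrays apart in that way. The mock arrays were not alike for the falling genes: mock replicate 2 was the lowest mock array for 283 of 407 (69.5%, against 27.4% of all genes) and mock replicate 1 the highest for 240 (59.0%, against 29.0% of all genes). Since the genes were called on these same arrays, the shares are a description. The control probe sets at the 3′ and the 5′ end of ubiquitin, actin and GAPDH transcripts form 6 pairs, 2 for each transcript. The log2 signal at the 3′ end minus that at the 5′ end had a lower mean in dark DEX than in dark mock for all 6, and the groups were apart for 1 of them, a ubiquitin pair with 1.21 ± 0.04 (SD, n = 4) in DEX and 1.27 ± 0.01 in mock (two-sided exact permutation p = 0.0286, the smallest that 4 against 4 arrays allow, and 0.171 adjusted over the 6 pairs). The other ubiquitin pair overlapped, with 0.303 ± 0.029 in DEX and 0.326 ± 0.055 in mock (exact permutation p = 0.6, adjusted p = 0.857), and the part of these differences in the changes below was not tested. Leaving out mock replicate 2 gave 585 probe sets higher and 854 lower.

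The largest rises belonged to genes known here by locus tag. AT2G41990 read 4.89, 5.30, 5.65 and 5.65 in the 4 mock arrays and 8.21, 8.24, 8.29 and 8.50 in the DEX arrays, a 7.65-fold rise (2.93 ± 0.13, adjusted p = 2.18e-11). AT2G42900 rose 5.13-fold (2.36 ± 0.11, adjusted p = 3.52e-11) and AT3G57930 3.28-fold (1.72 ± 0.15, adjusted p = 1.12e-07). The groups stayed apart for each of these genes. The largest rise of a gene with a symbol was that of SAG29, also named SWEET15, a member of the SWEET sugar exporters that is induced in senescing leaves. SAG29 read 7.95, 8.41, 8.12 and 8.13 in mock and 9.43, 9.38, 9.50 and 9.28 in DEX, a rise of 1.24 ± 0.08 (adjusted p = 5.45e-09). It was the 1 gene called among 16 measured SWEET genes.

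**Figure D1:**
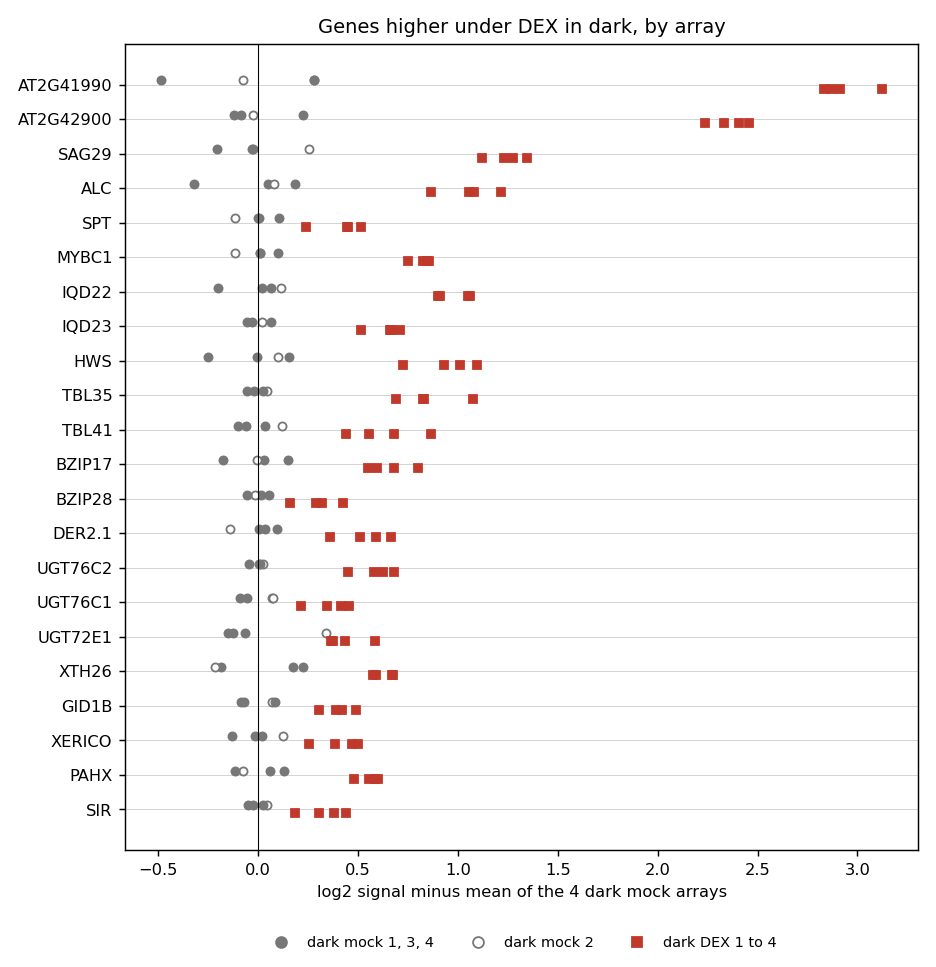
Log2 signal of 22 genes higher under DEX in dark, 1 row per gene, with the mean of the 4 dark mock arrays set to 0. Circles are mock arrays (open, mock replicate 2) and squares DEX arrays; the DEX squares lie to the right of the mock circles of their own row for every gene shown, with the narrowest gap at UGT72E1.

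Some transcription factors rose, though no share over all such factors was counted. SPT and SHL1 were named after the calls had been seen. ALC and SPT are closely related basic helix-loop-helix proteins that shape the fruit and its opening, and SPT also restrains growth and germination of the seedling. ALC read 5.66, 5.69, 5.79 and 5.29 in mock and 6.69, 6.82, 6.66 and 6.47 in DEX, and rose 2.08-fold (1.05 ± 0.10, adjusted p = 2.25e-07). SPT read 8.89, 8.67, 8.79 and 8.78 in mock and 9.22, 9.30, 9.23 and 9.02 in DEX, a rise of 0.41 ± 0.07 (adjusted p = 0.000902). Every DEX array was above every mock array for both genes. Neither is among the 7 measured genes whose annotated names carry bHLH, of which none was called. MYBC1, a MYB-related factor that limits freezing tolerance, read 9.29, 9.07, 9.20 and 9.20 in mock and 10.05, 10.03, 10.01 and 9.94 in DEX and rose by 0.82 ± 0.07 (adjusted p = 8.01e-08). SHL1, a chromatin protein that reads histone marks and delays flowering, rose by 0.41 ± 0.08 (adjusted p = 0.00327).

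Among the bZIP factors, 2 of 21 measured genes were called and both rose, where 2.35% of all genes with a symbol rose. They were BZIP17 and BZIP28, which are held in the membrane of the endoplasmic reticulum and are cut free when proteins misfold there. BZIP17 read 7.35, 7.32, 7.15 and 7.47 in mock and 7.88, 7.92, 8.13 and 8.01 in DEX (0.66 ± 0.08, adjusted p = 5.89e-06). BZIP28 read 8.60, 8.56, 8.64 and 8.52 in mock and 8.90, 8.74, 9.004 and 8.87 in DEX (0.30 ± 0.06, adjusted p = 0.00458). BZIP60, the factor of the other branch of that response, differed by -0.05 ± 0.06 (adjusted p = 0.746) and its arrays overlapped. DER2.1, a derlin that takes part in drawing misfolded proteins out of the endoplasmic reticulum, read 9.27, 9.03, 9.18 and 9.21 in mock and 9.84, 9.76, 9.68 and 9.53 in DEX, a rise of 0.53 ± 0.08 (adjusted p = 0.000162). The list of endoplasmic reticulum folding genes held 4 measured members, of which BZIP28 alone was called, and its median was 0.06 beside 0.01 over all genes.

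The IQD proteins bind calmodulin and attach to microtubules. Of 15 measured, IQD22 and IQD23 were called and both rose, beside 2.35% of all genes with a symbol. IQD22 read 6.52, 6.57, 6.47 and 6.25 in mock and 7.51, 7.502, 7.35 and 7.36 in DEX (1.97-fold, 0.98 ± 0.09, adjusted p = 1.36e-07). IQD23 read 8.09, 8.04, 7.97 and 7.997 in mock and 8.69, 8.54, 8.69 and 8.74 in DEX (0.64 ± 0.07, adjusted p = 2.85e-06). ATMAP65-6, which bundles microtubules, rose by 0.41 ± 0.08 (adjusted p = 0.00295). The DEX and mock arrays were apart for the 3 genes.

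Cell wall genes appeared on both sides. TBL proteins add acetyl groups to wall polysaccharides, and 2 of 23 were called, both higher, beside 2.35% of all genes with a symbol. TBL35 read 6.82, 6.92, 6.86 and 6.90 in mock and 7.57, 7.71, 7.71 and 7.96 in DEX (0.86 ± 0.10, adjusted p = 3.18e-06), and TBL41 rose by 0.64 ± 0.10 (adjusted p = 0.000131). XTH26, which cuts and rejoins xyloglucan chains, was the 1 gene called of 10 XTH genes: it read 6.12, 6.09, 6.48 and 6.52 in mock and 6.88, 6.97, 6.89 and 6.97 in DEX (0.63 ± 0.10, adjusted p = 0.000381). Of 19 measured expansin and expansin-like genes 17 were not called and 1 was called in each direction. EXPA9, an expansin, which loosens the wall, read 9.37, 9.40, 9.40 and 9.13 in mock and 9.74, 9.72, 9.74 and 9.66 in DEX (0.39 ± 0.09, adjusted p = 0.00711). On the falling side, EXLB2 (AT4G30380), an expansin-like gene, read 9.32, 8.77, 9.30 and 9.42 in mock and 8.04, 8.14, 8.10 and 7.54 in DEX (-1.25 ± 0.13, adjusted p = 1.52e-06). GAUT15, of the galacturonosyltransferase family that builds pectin, fell by 0.75 ± 0.09 (adjusted p = 1.09e-05), and the pectin methylesterase ATPMEPCRB fell by 0.55 ± 0.11 (adjusted p = 0.00243). ARL, an ARGOS-like gene that promotes organ growth through cell expansion, fell by 0.49 ± 0.09 (adjusted p = 0.00085).

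UDP-glycosyltransferases attach sugars to hormones and other small molecules. Of 43 measured genes annotated by that name, 3 were higher and 3 lower, where 2.08% and 3.06% of all genes were. UGT76C2 and UGT76C1, which inactivate cytokinins by N-glucosylation, both rose. UGT76C2 read 8.41, 8.48, 8.46 and 8.47 in mock and 9.03, 8.91, 9.08 and 9.13 in DEX (0.58 ± 0.09, adjusted p = 9.62e-05). UGT76C1 read 7.15, 7.16, 7.03 and 6.99 in mock and 7.54, 7.500, 7.30 and 7.43 in DEX (0.36 ± 0.08, adjusted p = 0.00962). UGT72E1, a glucosyltransferase of lignin precursors, rose by 0.44 ± 0.09 (adjusted p = 0.0029); its mock replicate 2 stood at 8.52 against 8.03 to 8.11 in the other mock arrays. UGT73B4, a stress-induced enzyme of the UGT73B subfamily, fell from 7.13, 6.78, 7.03 and 6.86 in mock to 6.16, 6.25, 6.28 and 6.17 in DEX (-0.73 ± 0.10, adjusted p = 4.27e-05). UGT73B5 fell by 0.44 ± 0.12 (adjusted p = 0.0288) and UGT71C1 by 0.38 ± 0.07 (adjusted p = 0.000885). The call of UGT73B5 was lost without DEX replicate 1 or 2 or without mock replicate 1 or 3, with an adjusted p of up to 0.118 without mock replicate 1, and it also missed with the dark arrays alone (adjusted p = 0.0502). UGT76C2 lies next to UGT76C1 on the chromosome, and UGT73B5 next to UGT73B4. Whether probes of 1 gene also read its neighbour was not tested.

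Hormone genes gave few calls. GID1A and GID1B are receptors of gibberellin, the hormone that keeps the hypocotyl growing in darkness. GID1B read 7.35, 7.503, 7.52 and 7.37 in mock and 7.85, 7.82, 7.74 and 7.92 in DEX and rose (0.40 ± 0.09, adjusted p = 0.00476), while GID1A read 8.94, 8.79, 9.04 and 9.05 in mock and 8.68, 8.71, 8.79 and 8.66 in DEX and was called lower (-0.24 ± 0.07, adjusted p = 0.0385). The call of GID1A was lost without DEX replicate 1, 2 or 4 or without mock replicate 1, 3 or 4 (adjusted p of up to 0.135, without mock replicate 3) and with the dark arrays alone (0.0957). The other 2 measured members of the gibberellin list were not called. Of 8 auxin genes, WES1 alone was called: this GH3 enzyme, which conjugates auxin to amino acids, read 9.98, 9.61, 9.70 and 9.74 in mock and 9.09, 9.07, 9.23 and 9.16 in DEX (-0.62 ± 0.10, adjusted p = 0.000235). Of the auxin list, 2 genes were lower with the dark arrays alone or with the replicate block. XERICO, a RING protein that raises abscisic acid levels, rose by 0.40 ± 0.08 (adjusted p = 0.00298). No member was called among 3 ethylene genes, 2 cytokinin response genes, 1 abscisic acid gene and 1 jasmonate gene, and too few were measured to describe those pathways.

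**Figure D2:**
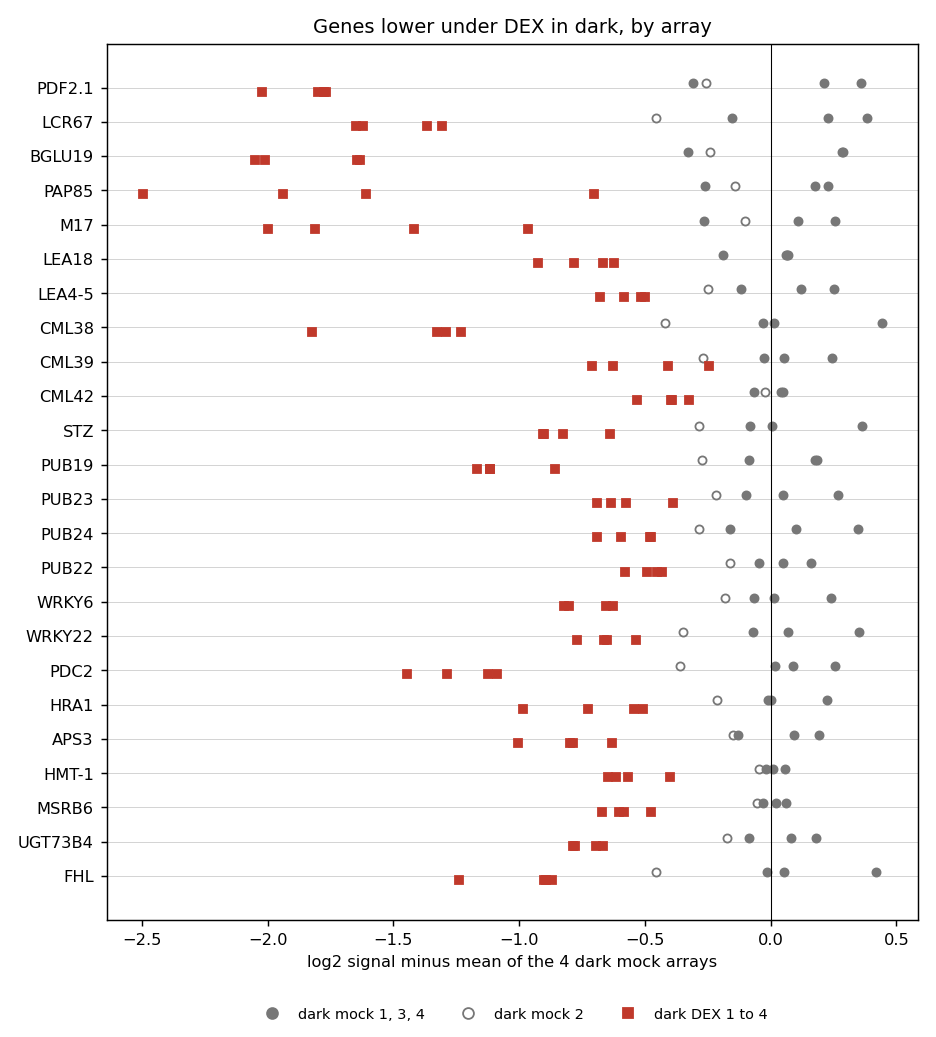
Log2 signal of 24 genes lower under DEX in dark, drawn with the same marks as the plot of rising genes and with the mean of the 4 dark mock arrays set to 0. The DEX squares lie to the left of the mock circles in every row except CML39, where they overlap, and mock replicate 2 (open circle) is the lowest mock array in most rows.

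The largest falls of a named gene were those of AT5G42200, which read 10.88, 9.77, 10.45 and 10.53 in mock and 8.03, 8.04, 8.54 and 7.87 in DEX (4.89-fold, -2.29 ± 0.17, adjusted p = 1.98e-08), and of AT1G20310 (-2.06 ± 0.12, adjusted p = 8.45e-10). Over all probe sets called lower, the largest fall was -4.05. It belonged to a probe set outside those that stand for the 13286 genes and is not described here. Among the gene lists, the one of low oxygen held the most falls. When oxygen runs short, plant cells make energy by glycolysis and fermentation, and a small core set of transcripts rises in nearly all cell types. The list was written with earlier results of these data known, so its count is a description. Of its 21 measured genes, 19 fell and none rose, with a median of -0.76 where the median over all genes was 0.01 and 3.06% of all genes were called lower. The arrays were apart for 18 of them. PDC2, a pyruvate decarboxylase that starts ethanol fermentation, read 10.99, 10.37, 10.82 and 10.75 in mock and 9.44, 9.61, 9.64 and 9.29 in DEX, a 2.36-fold fall (-1.24 ± 0.10, adjusted p = 6.19e-08). HRA1 (AT3G10040), a trihelix factor that damps the low-oxygen response, read 11.99, 11.55, 11.75 and 11.76 in mock and 11.22, 11.26, 11.04 and 10.78 in DEX (-0.69 ± 0.10, adjusted p = 0.000129). CML38, a calmodulin-like calcium sensor induced by low oxygen and by touch, read 11.62, 10.76, 11.19 and 11.15 in mock and 9.85, 9.95, 9.89 and 9.36 in DEX, a 2.67-fold fall (-1.42 ± 0.14, adjusted p = 9.61e-07). Each of the 3 had its 4 DEX arrays below every mock array, and mock replicate 2 nearest to them.

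The other called members have locus tags only. AT2G41730 fell most, from 8.82, 7.87, 8.20 and 8.49 in mock to 6.53, 6.61, 7.04 and 6.56 in DEX (-1.66 ± 0.19, adjusted p = 3.61e-06), followed by AT3G23170 with -1.51 ± 0.12 (adjusted p = 4.31e-08). Falls of AT4G24110, AT2G17850, AT4G33560, AT1G03610, AT5G10040 and AT5G44730 lay between -1.23 and -1.003, which is at least 2-fold. The members not called were AT3G10020 (-0.17 ± 0.07, adjusted p = 0.236) and AT1G19530 (-0.05 ± 0.06, adjusted p = 0.747). Averaged over the 21 genes, the log2 signal was 11.35 ± 0.20 (SD, n = 4) in dark mock, from 11.07 to 11.55, and 10.52 ± 0.14 in dark DEX, from 10.32 to 10.63. The groups did not overlap on this mean. Since the list was written with earlier results of these data known, this too is a description. In the alternatives tried, 18 or 19 members were called lower. Of 4 glycolysis genes, 1 was called lower and none higher, where 3.06% of all genes were lower and 2.08% higher.

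**Figure D3:**
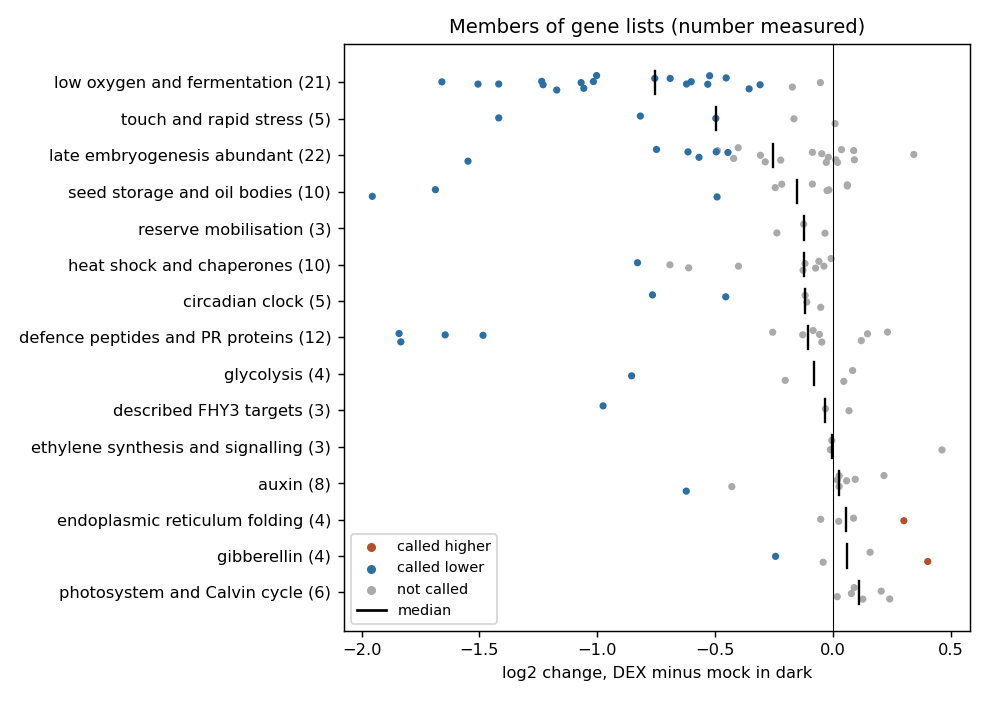
Log2 change of DEX against mock in dark for each measured member of the 15 gene lists with at least 3 measured genes, 1 point per gene, with the number measured in brackets and the median as a bar. The low-oxygen list lies almost wholly to the left of 0 with 19 of 21 members called lower, while no member of the photosystem list was called.

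Genes of the maturing seed formed a further group. Storage proteins, oil-body proteins and late embryogenesis abundant (LEA) proteins are made late in seed development and fade as the seedling grows. Of 10 genes of storage proteins and oil bodies, 3 fell and none rose (median -0.15), beside 3.06% lower and 2.08% higher over all genes. PAP85, a vicilin-like storage globulin, read 6.88, 6.51, 6.83 and 6.39 in mock and 4.71, 5.04, 5.95 and 4.16 in DEX (-1.69 ± 0.24, adjusted p = 8.09e-05). The DEX arrays of PAP85 spread widely but all stayed below the mock arrays. AT2G28490, of the same list, read 7.77, 7.34, 8.01 and 7.67 in mock and 5.80, 5.68, 5.73 and 5.76 in DEX, a 3.88-fold fall (-1.95 ± 0.16, adjusted p = 4.29e-08). The remaining faller, AT3G01570, lost its call without DEX replicate 3 or 4 or without mock replicate 1 or 4. Its adjusted p was up to 0.133, without mock replicate 4. With array weights its call was also lost (adjusted p = 0.069).

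Of 22 LEA genes, 6 fell and none rose (median -0.26), where 3.06% of all genes fell and 2.08% rose. M17 read 8.88, 8.53, 8.74 and 8.36 in mock and 7.21, 7.66, 6.63 and 6.82 in DEX, a 2.93-fold fall (-1.55 ± 0.22, adjusted p = 7.26e-05). LEA18 fell by 0.75 ± 0.11 (adjusted p = 0.000158) and LEA4-5 by 0.57 ± 0.09 (adjusted p = 0.000226). COR47, a cold-induced dehydrin of this list, read 13.98, 14.05, 14.03 and 13.96 in mock and 14.07, 14.01, 14.11 and 14.16 in DEX and was not called (0.09 ± 0.06, adjusted p = 0.514). Of 3 genes that mobilise stored reserves, none was called.

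Defence peptides and related genes fell in part. Of 12 measured defensin, thionin and pathogenesis-related genes, 4 fell and none rose (median -0.11), against 3.06% of all genes lower and 2.08% higher. PDF2.1 and LCR67 encode defensins, small secreted antimicrobial peptides. PDF2.1 read 7.33, 6.71, 7.18 and 6.66 in mock and 5.21, 5.17, 5.20 and 4.95 in DEX, a 3.58-fold fall (-1.84 ± 0.18, adjusted p = 5.57e-07). LCR67 read 8.40, 7.56, 8.24 and 7.86 in mock and 6.40, 6.71, 6.65 and 6.37 in DEX, a 2.80-fold fall (-1.48 ± 0.20, adjusted p = 3.79e-05). They were the 2 genes called among 12 with LCR in their names, where 3.97% of all genes with a symbol were lower. BGLU19, a beta-glucosidase, read 7.59, 7.06, 7.59 and 6.97 in mock and 5.66, 5.30, 5.25 and 5.67 in DEX (-1.83 ± 0.14, adjusted p = 3.72e-08). Of 22 genes with the stem BGLU in their symbols or synonyms BGLU46, an enzyme that acts on lignin precursors, was the other one called (-0.47 ± 0.12, adjusted p = 0.0183). The share to set beside these 22 genes is again 3.97%. The call of BGLU46 was lost without DEX replicate 1 or 3 or without mock replicate 1 (adjusted p of up to 0.0785).

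Some genes of calcium sensing and of the touch response also fell. Of 8 calmodulin-like (CML) genes 5 were not called and 3 were lower, where 3.97% of all genes with a symbol were: CML38, CML42 and CML39 (AT1G76640). CML42 read 10.85, 10.89, 10.96 and 10.97 in mock and 10.52, 10.38, 10.53 and 10.59 in DEX (-0.41 ± 0.07, adjusted p = 0.000328). CML39 read 6.23, 5.91, 6.15 and 6.42 in mock and 5.55, 5.77, 5.93 and 5.46 in DEX (-0.50 ± 0.15, adjusted p = 0.0479), with overlapping groups. The call of CML39 was lost without DEX replicate 1, 2 or 4 or without mock replicate 1, 3 or 4 (adjusted p of up to 0.173, without mock replicate 4), with the replicate block (0.0520) and after quantile normalisation (0.0714). STZ, a zinc finger repressor induced within minutes by stress and touch, read 9.82, 9.17, 9.37 and 9.46 in mock and 8.82, 8.55, 8.55 and 8.63 in DEX (-0.82 ± 0.12, adjusted p = 0.000108). Of 5 touch and rapid-stress genes, 2 were not called and 3 were lower, CML38, STZ and CML39, beside 3.06% of all genes.

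WRKY6 and WRKY22 were the 2 genes called of 7 WRKY factors, and both fell, where 3.97% of all genes with a symbol did. The median change of the 7 WRKY genes was 0.0082. WRKY6, which acts in senescence and phosphate supply, read 9.47, 9.05, 9.24 and 9.16 in mock and 8.60, 8.41, 8.58 and 8.43 in DEX (-0.73 ± 0.08, adjusted p = 2.85e-06). WRKY22, which acts downstream of immune receptors, read 9.44, 8.74, 9.02 and 9.16 in mock and 8.56, 8.32, 8.44 and 8.43 in DEX (-0.65 ± 0.11, adjusted p = 0.000614). B120, a lectin receptor-like kinase chosen after its values were seen, read 6.86, 6.83, 6.92 and 6.77 in mock and 6.10, 5.96, 6.25 and 6.12 in DEX (-0.74 ± 0.09, adjusted p = 4.98e-06). AR781 fell 2.44-fold (-1.29 ± 0.18, adjusted p = 5.62e-05).

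The plant U-box (PUB) family of ubiquitin ligases gave 4 falls among 9 measured genes and no rise, where 3.97% of all genes with a symbol fell. PUB22, PUB23 and PUB24 are close relatives that act together to dampen immune signalling, and PUB19 takes part in responses to drought and abscisic acid. PUB19 read 8.16, 7.70, 7.89 and 8.15 in mock and 6.86, 6.86, 7.11 and 6.81 in DEX, a 2.09-fold fall (-1.06 ± 0.13, adjusted p = 1.39e-05). PUB22 read 10.49, 10.17, 10.28 and 10.38 in mock and 9.90, 9.75, 9.88 and 9.84 in DEX (-0.49 ± 0.07, adjusted p = 5.48e-05), a smaller fall with little spread. PUB23 fell by 0.57 ± 0.11 (adjusted p = 0.002) and PUB24 by 0.56 ± 0.12 (adjusted p = 0.00614). The arrays of the 4 genes were apart. Other ubiquitin genes rose: HWS, an F-box protein that controls organ separation and microRNA action, read 6.36, 6.71, 6.76 and 6.60 in mock and 7.70, 7.62, 7.33 and 7.54 in DEX (0.94 ± 0.11, adjusted p = 5.24e-06). UBC18, a ubiquitin-conjugating enzyme and the 1 called of 13, rose by 0.30 ± 0.07 (adjusted p = 0.00644), and the RING protein gene ATL8 rose by 0.36 ± 0.08 (adjusted p = 0.00569).

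Single genes of metabolism and transport, most of them chosen after their values were seen, were called in both directions. SIR, the sulfite reductase of sulfate assimilation, rose by 0.33 ± 0.07 (adjusted p = 0.00463), whereas APS3, an ATP sulfurylase of the same pathway, read 8.44, 8.10, 8.34 and 8.12 in mock and 7.45, 7.62, 7.47 and 7.24 in DEX and fell (-0.80 ± 0.11, adjusted p = 3.79e-05). HMT-1, which makes methionine from homocysteine, read 8.95, 8.84, 8.90 and 8.87 in mock and 8.24, 8.28, 8.32 and 8.49 in DEX (-0.56 ± 0.08, adjusted p = 4.81e-05). SUFE2, an activator of sulfur transfer to iron-sulfur clusters, fell by 0.58 ± 0.12 (adjusted p = 0.00515). Of 4 methionine sulfoxide reductases (MSRB), which repair oxidised methionine, MSRB6 (-0.58 ± 0.08, adjusted p = 2.83e-05) and MSRB9 (-0.38 ± 0.07, adjusted p = 0.000617) were lower. Among all genes with a symbol 3.97% were lower, and this family was formed after the calls had been seen.

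PAHX, a phytanoyl-CoA hydroxylase, read 9.56, 9.42, 9.38 and 9.63 in mock and 10.10, 10.05, 9.98 and 10.09 in DEX and rose (0.56 ± 0.07, adjusted p = 1.55e-05). CYP84A4, the 1 gene called of 24 whose annotated names carry cytochrome P450, rose by 0.37 ± 0.08 (adjusted p = 0.00355). AZG1, a purine transporter, read 7.65, 7.73, 7.55 and 7.69 in mock and 7.10, 6.89, 7.13 and 7.09 in DEX (-0.61 ± 0.07, adjusted p = 7.89e-06). TIL, a lipocalin that protects membranes in heat and cold, fell by 0.76 ± 0.10 (adjusted p = 3.87e-05), and SGP1, a small GTP-binding protein, by 0.65 ± 0.07 (adjusted p = 2.85e-06). Of 12 glutathione S-transferases none was called.

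Among light and clock genes, FHL, the described FHY3 target that carries phytochrome A into the nucleus, was lower: it read 10.84, 9.96, 10.47 and 10.40 in mock and 9.52, 9.51, 9.55 and 9.18 in DEX, and the groups were apart (-0.98 ± 0.13, adjusted p = 2.49e-05). HEMB1, a described target that encodes an enzyme of tetrapyrrole synthesis, read 10.13, 10.04, 9.95 and 9.98 in mock and 9.96, 10.01, 9.99 and 10.01 in DEX and was not called (-0.03 ± 0.06, adjusted p = 0.867). Of 5 clock genes 2 were lower and none higher, where 3.06% of all genes were lower and 2.08% higher. AT4G33980, of that list, read 9.59, 9.28, 9.52 and 9.52 in mock and 8.70, 8.73, 8.69 and 8.73 in DEX (-0.77 ± 0.08, adjusted p = 1.30e-06). Of 10 heat shock genes 1 was lower, AT5G51440 (-0.83 ± 0.14, adjusted p = 0.000449), beside the same 3.06% of all genes. The count was 3 with the dark arrays alone, with the replicate block or without DEX replicate 4, and 2 without mock replicate 3.

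Genes were also grouped by a shared stem of the symbol or of a listed synonym, which gave 121 families with at least 3 measured members and 807 genes. Some members, such as CML39, entered by a synonym and have only a locus tag as symbol. The shares over all genes with a symbol leave such members out. A called member was found in 35 families and at least 2 called members in 14. In 4 of the 14 (UGT, GID, SCPL and PRX) members were called in both directions. The calls of both SCPL genes, scpl50 and scpl18, were lost when some single dark arrays were left out (adjusted p of up to 0.115, for scpl18). In PRX the same held for AT5G64120, which rose, and for Prx37, which fell (adjusted p of up to 0.069, for AT5G64120). Beside 2.35% higher and 3.97% lower of all genes with a symbol, 3 of the 51 genes that share the stem UGT, the one with the most measured members, were higher and 3 lower. The families with at least 2 calls, all in 1 direction, had at most 23 measured members, so each gene weighs heavily in their share.

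**Figure D4:**
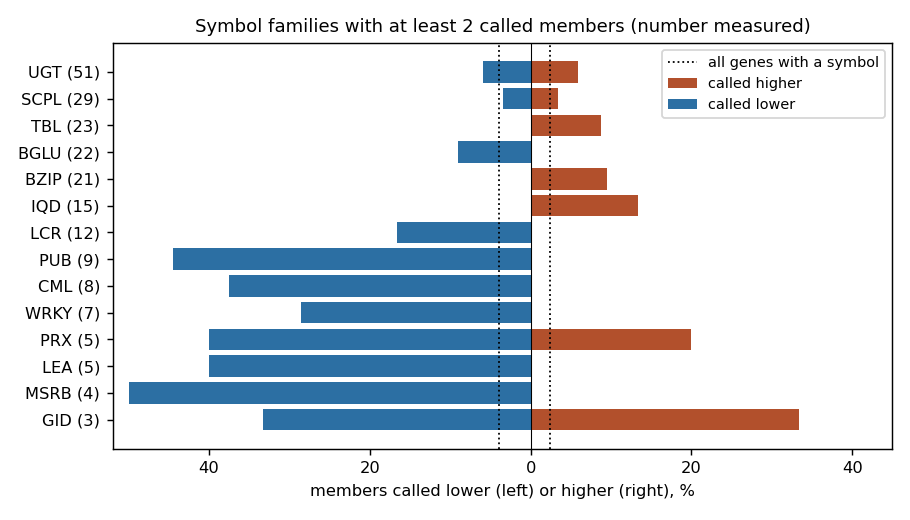
Share of measured members called lower (bars to the left) and higher (bars to the right) under DEX in dark for the 14 symbol families with at least 2 called members, with the number measured in brackets and the shares over all genes with a symbol as dotted lines. PUB, CML, WRKY, MSRB and LEA bars lie only to the left, and BZIP, IQD and TBL bars only to the right.

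Called genes were in places neighbours on the chromosome. Of 5878 pairs of genes next to each other in RefSeq order and both measured, 12 were both higher, 20 both lower and 4 opposite. Of the measured neighbours of a higher gene, 9.49% were higher, where 2.08% of all genes were, and of those of a lower gene, 9.26% were lower, where 3.06% of all genes were. UGT76C2, UGT76C1 and AT5G05880 were neighbours that rose, the last with a log2 change of 0.51 (adjusted p = 9.90e-05). MYBC1 and AT2G40960 (0.28, adjusted p = 0.0383) rose together, as did TBL35 and AT5G01610 (0.71, adjusted p = 6.25e-05). CML38 and CML39 were neighbours that were both lower. Some of these pairs are related genes, and reading of both by the same probes was not tested.

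The same genes were then read in the 8 far-red arrays, which had no part in the dark means. The tests in both lights, however, used the same estimate of spread, fitted to the dark and far-red arrays together. A probe set with a small estimated spread is favoured for a call in both lights, so the shared calls are not independent. With the dark arrays alone, 435 probe sets were higher and 729 lower, and their calls in far-red were not tested. Of the 276 genes higher in dark, 61 were also higher under DEX in far-red and 2 lower, where 0.828% and 0.12% of all genes were. Of the 407 lower in dark, 4 were lower in far-red and 2 higher. The difference between both responses was itself called for 36 (13.0%) of the higher and 181 (44.5%) of the lower genes, where 1.86% of all genes were. These genes were chosen in dark, which by itself favours a larger value there. The mean log2 signal of the lower genes was 8.08 ± 0.13 (SD, n = 4) in dark mock, 7.47 ± 0.03 in dark DEX, 8.17 ± 0.07 in far-red mock and 8.15 ± 0.03 in far-red DEX. For the low-oxygen list the far-red means were 11.59 ± 0.03 in mock and 11.61 ± 0.02 in DEX.

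By gene, IQD22 (0.93, adjusted p = 1.49e-06), IQD23 (0.89, adjusted p = 2.00e-07), MYBC1 (0.76, adjusted p = 1.34e-06), BZIP17 (0.56, adjusted p = 0.000203), SPT (0.49, adjusted p = 0.000782) and GID1B (0.42, adjusted p = 0.0123) were also called higher in far-red. ALC changed by 0.01 ± 0.10 there (adjusted p = 0.978), and its response differed between the lights by -1.04 (adjusted p = 0.000132). XTH26 and TBL35 also differed, by -0.66 (adjusted p = 0.0163) and -0.59 (adjusted p = 0.0197). ATL8 was called in opposite directions, with 0.36 in dark and -0.42 in far-red (adjusted p = 0.00586). PDC2 changed by -0.04 ± 0.10 in far-red (adjusted p = 0.927) and BGLU19 by 0.30 ± 0.14 (adjusted p = 0.509), and both differed in response (adjusted p = 6.73e-05 and 4.54e-06). B120 was called lower in both lights (-0.40 in far-red, adjusted p = 0.0191). FHL changed by -0.31 ± 0.13 in far-red (adjusted p = 0.39), and its difference of responses was not called (adjusted p = 0.0612).

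**Figure D5:**
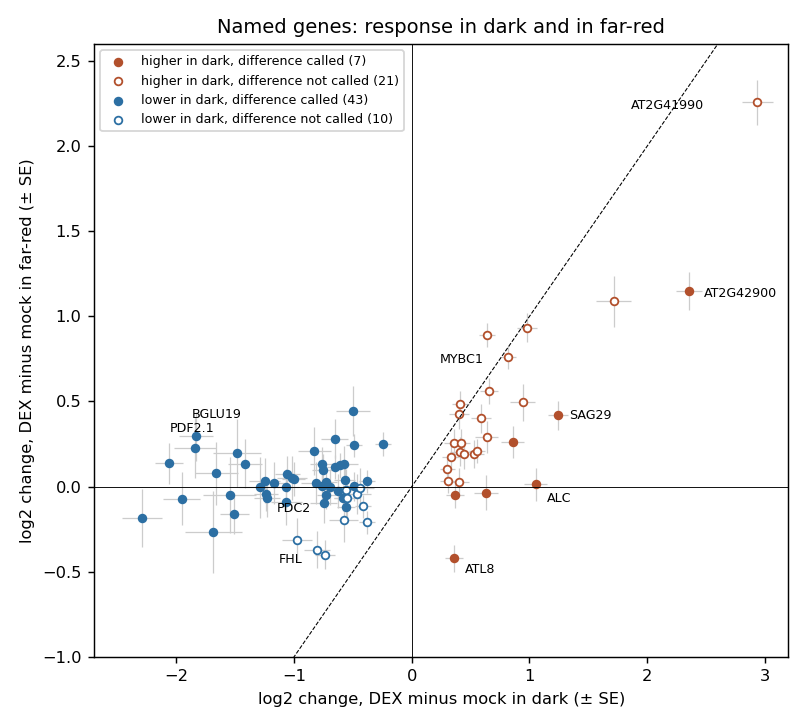
Log2 change under DEX in dark (x axis) and in far-red (y axis) of the named genes called in dark, with standard errors as bars, filled where the difference between both responses was called and the dashed line marking equal responses. Of 28 risers 7 are filled, and of 53 fallers 43 are filled, all above the dashed line.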

How the data were processed

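The deposited table holds log2 signals, 1 value per probe set and array. RMA and the affy package, which summarise and normalise the probes of Affymetrix arrays, are named in the submitters' processing notes with no version or setting. The file has 22810 probe sets; the 64 control probe sets were left out. The sample titles gave the groups and replicate numbers, and the number of value columns not used was 0. An annotation of the platform pairs 13513 probe sets with 1 gene and 503 with several, 8730 are unnamed here, and names were updated through RefSeq (TAIR10.1), used for names and gene order only. The table gives no detection calls, and the number of arrays limits the precision.

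A linear model with 1 mean for each of the 4 groups was fitted to all 16 arrays with limma 3.58.1 in R 4.3.3 (lmFit, eBayes; 19.65 degrees of freedom with the prior). Benjamini and Hochberg adjustment ran over the p-values of 22746 probe sets. On simulated data, the test called 86 of 100 simulated log2 changes of 0.5, 100 of 100 of -1 and 14 of 22546 probe sets with no change. The simulated noise was independent between probe sets and arrays. These counts therefore do not cover deviations that many probe sets of an array share. The alternatives were a fit to the dark arrays alone, a replicate block, quantile normalisation, leaving out dim probe sets, a trended and robust prior, array weights, single-gene probe sets alone, an adjusted p under 0.01 and leaving out each of the 8 dark arrays.

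The comparison and its gene lists were chosen with earlier results of these data known. The 27 lists hold 594 loci, of which 128 were measured; 5 lists (seed regulators, sugar starvation, brassinosteroid, FAR1-related and nitrate genes) had no measured member, and the lists for cell division and root and seed coat markers had 1 or 2. Named genes are the 40 largest called rises and falls, up to 6 called members of each list or family by smallest p, members of lists described one by one, FHL and HEMB1. Families by symbol stem, with at least 3 measured members, were added after the calls had been seen, and so were the names APS3, TIL, GAUT15, B120, SGP1, AZG1, SUFE2, HMT-1, ARL, SIR, XERICO, SHL1, SPT and PAHX. A pattern that picks defensins and thionins by name was corrected once it was found to match methionine. A planned search of promoters for motifs was not run, since promoter sequences were not used here.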

Additional observations from a re-analysis of the deposited data

Results flagged for a closer look

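In 14 of 178 groups of 4 dark arrays examined for the named genes (7.87%), 1 array stood far from the other 3, where chance gives about 1 in 20. Dark DEX replicate 2 read 9.59 for UGT71C1 against 9.68 to 9.69. Dark DEX replicate 3 read 7.04 for AT2G41730 against 6.53 to 6.61 and 7.11 for PUB19 against 6.81 to 6.86. Dark DEX replicate 4 read 4.95 for PDF2.1 against 5.17 to 5.21, 9.36 for CML38 against 9.85 to 9.95, 7.54 for EXLB2 (AT4G30380) against 8.04 to 8.14 and 9.18 for FHL against 9.51 to 9.55. Dark mock replicate 2 read 6.61 for AT1G20310 against 7.13 to 7.17, 9.35 for AT3G23170 against 9.85 to 9.91, 10.48 for AT4G24110 against 10.99 to 11.03, 11.50 for AT1G03610 against 11.97 to 12.04, 9.51 for AT5G44730 against 9.85 to 9.90 and 8.52 for UGT72E1 against 8.03 to 8.11. Dark mock replicate 3 read 7.69 for LEA18 against 7.94 to 7.95.

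The response to DEX differed between far-red and dark, by limma's test of the difference with adjustment over all probe sets, for 50 of the named genes; the values are the far-red change minus the dark change on the log2 scale. It was negative for 7 genes that were higher in dark: -1.21 for AT2G42900, -1.04 for ALC, -0.82 for SAG29, -0.78 for ATL8, -0.66 for XTH26, -0.59 for TBL35 and -0.41 for CYP84A4, with adjusted p from 0.000126 to 0.0461.

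It was positive for 43 genes that were lower in dark, with adjusted p from 3.11e-07 to 0.0394. All 50 genes had been called in dark, which by itself favours these signs, so the signs are a description. Over all genes, 1.86% had the difference called. The difference was largest, at 1.5 or more, with 2.199 for AT1G20310, 2.13 for BGLU19, 2.11 for AT5G42200, 2.07 for PDF2.1, 1.88 for AT2G28490, 1.74 for AT2G41730, 1.68 for LCR67 and 1.55 for CML38. Values between 1 and 1.5 were 1.499 for M17, 1.42 for PAP85, 1.35 for AT3G23170, 1.28 for EXLB2 (AT4G30380), 1.28 for AR781, 1.196 for AT2G17850, 1.19 for PDC2, 1.16 for AT4G24110, 1.13 for AT1G03610, 1.06 for AT5G10040, 1.06 for AT4G33560, 1.05 for AT5G44730 and 1.04 for AT5G51440. Lower values were 0.97 for PUB19, 0.94 for CML39 (AT1G76640), 0.94 for WRKY22, 0.89 for TIL, 0.85 for GAUT15, 0.84 for STZ, 0.77 for AT4G33980, 0.76 for SGP1, 0.76 for UGT73B4, 0.73 for AZG1, 0.73 for PUB22 and 0.70 for PUB23. The smallest were 0.69 for HRA1 (AT3G10040), 0.68 for WRKY6, 0.65 for LEA18, 0.61 for LEA4-5, 0.60 for WES1, 0.52 for MSRB6, 0.49 for GID1A, 0.49 for ARL, 0.44 for HMT-1 and 0.41 for UGT71C1.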

How the results depend on the processing

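Against 533 probe sets higher and 809 lower, the counts stayed within 1.5 times (435 to 617 higher, 729 to 893 lower) with the dark arrays alone, quantile normalisation, no dim probe sets, a trended and robust prior, array weights and the replicate block. They moved further by construction with fewer probe sets (single-gene probe sets alone, 265 higher and 399 lower) or a stricter threshold (adjusted p under 0.01, 311 and 525). Leaving out 1 dark array gave 406 to 585 higher and 639 to 854 lower. The difference of responses was called for 428 of the probe sets called in dark, for 212 with single-gene probe sets alone, and for 343 to 549 without 1 dark array. With the replicate number as a block, 562 were higher and 850 lower, and 459 differences were called. Same-numbered DEX and mock arrays correlated at 0.20, -0.03, 0.03 and -0.03 in their deviations from the group means. Arrays with different numbers correlated at -0.24 to 0.28, so no pairing by number was seen. With 4 arrays per group, these values cannot settle whether the samples were paired. HEMB1 was not called and ranged from -0.0588 to 0.0038 without 1 array, changing sign only without mock replicate 1. The heat shock list had 2 lower genes, not 1, with quantile normalisation, without dim probe sets or with array weights. The cause of these moves was not tested. Of the probe sets under the lower quartile of mean log2 signal, 4.45, 17 were called higher and 25 lower; signal near background cannot show small changes. The promoter motif search was not run.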
